A study of Mus musculus with 18 samples.

Results

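The sarcomeric myosin heavy chains Myh3, Myh8, Myh7, Myh2, Myh1 and Myh4 were followed at the transcript level in mouse C2C12 myotubes that expressed an shRNA against Nup210, an shRNA against Mef2c or a scrambled control shRNA. These 6 genes, of 22180 measured, were taken by name: every probe set whose only gene symbol was one of them was used, which gave 7 probe sets, 1 for each gene and a second one for Myh8. The study hybridised total RNA from 18 samples to 1 array each, 6 per shRNA. Nup210 is a membrane glycoprotein of the nuclear pore complex, and Mef2c is a transcription factor of muscle differentiation.

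All arrays came from C2C12, an established mouse myoblast line whose cells fuse into multinucleated myotubes when serum is withdrawn. In all 3 groups the cells were grown in medium with 20% fetal bovine serum and moved to 2% horse serum to differentiate. They were infected 36 h later and collected 48 h after infection, so the control arrays also carried virus and an shRNA. Because infection followed the onset of differentiation, the comparisons concern myotubes that had already begun to form. The arrays are numbered 1 to 6 within each group. The labels do not say that these were separate cultures, so the p-values measure the spread between these arrays, which may be technical. The RNA is bulk RNA, in which fewer cells of a kind and less RNA per cell cannot be told apart.

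A myosin heavy chain is the motor subunit of the thick filament: its head splits ATP and pulls on actin, and its rod packs with others into the filament. Skeletal muscle chooses among a family of such genes. The embryonic chain Myh3 and the perinatal chain Myh8 appear in developing and regenerating muscle. Myh7 is the slow chain of type I fibres, and Myh2, Myh1 and Myh4 are the chains of fast type IIa, IIx and IIb fibres. Cultured myotubes express developmental chains strongly and mature chains to varying degrees.

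Of these genes, Myh3, Myh2, Myh1, Myh4 and Myh8 follow each other in that order on chromosome 11, with the extraocular gene Myh13 after them. Among the members only Myh7 lies on chromosome 14. Their promoters are shown first, since Mef2c, one of the targeted genes, binds DNA and the members did not move together. The letters come from RefSeq windows on mouse assembly GRCm38.p6 that end at the annotated gene start, and they are printed in the gene's direction. Capitals mark the runs of bases that the neighbouring promoters share.
Myh2 (chr11:67170890-67170927, + strand): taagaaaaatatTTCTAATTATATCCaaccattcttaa
Myh1 (chr11:67199874-67199967, + strand): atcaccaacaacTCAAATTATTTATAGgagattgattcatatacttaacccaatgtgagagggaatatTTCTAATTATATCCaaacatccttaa
Myh4 (chr11:67237613-67237679, + strand): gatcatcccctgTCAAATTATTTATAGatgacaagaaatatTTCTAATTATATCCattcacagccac
Myh8 (chr11:67277008-67277095, + strand): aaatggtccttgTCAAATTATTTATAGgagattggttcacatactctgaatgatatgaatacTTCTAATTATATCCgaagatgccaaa

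The run TTCTAATTATATCC occurred in the 250 bases before the start of Myh1, Myh2, Myh4 and Myh8 and in no other of 32851 such windows, on either strand. It began 160 bases before the start of Myh1, 125 before Myh2, 158 before Myh4 and 54 before Myh8. The run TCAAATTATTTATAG was in the windows of Myh1, Myh4 and Myh8 alone. It held a match to the MEF2 element, which 2.92% of all windows hold on either strand. On the opposite strand the same bases read TATAAA, so those 2 motifs overlap there.

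The windows of Myh3 and Myh7 held neither run and no MEF2 match; the window of Myh2 held no MEF2 match either. They are shown whole because these were the members that fell in both shRNA groups. Capitals mark the E-box CANNTG, the site of the MyoD family, and in Myh3 the TATAAA box.
Myh3 (chr11:67078050-67078299, + strand): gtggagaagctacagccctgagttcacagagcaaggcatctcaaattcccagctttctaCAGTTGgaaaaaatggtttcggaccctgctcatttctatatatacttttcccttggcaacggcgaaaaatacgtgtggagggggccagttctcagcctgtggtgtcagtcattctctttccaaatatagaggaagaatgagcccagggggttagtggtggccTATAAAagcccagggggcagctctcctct
Myh7 (chr14:54994627-54994876, - strand): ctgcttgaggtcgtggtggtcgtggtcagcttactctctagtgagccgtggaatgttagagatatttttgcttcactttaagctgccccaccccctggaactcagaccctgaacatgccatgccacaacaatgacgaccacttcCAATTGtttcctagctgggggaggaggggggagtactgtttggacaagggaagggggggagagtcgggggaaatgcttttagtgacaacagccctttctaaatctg

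The E-box was in 66.2% of all windows and TATAAA in 12.4%, on either strand. The E-box lay 191 bases before the start of Myh3, 106 before Myh7, 221 and 67 before Myh4 and 32 before Myh8. The M-CAT letters CATTCC, present in 12.6% of windows, were found 201 bases before the start of Myh7, 16 before Myh1 and 231 before Myh4. The CArG element, in 1.47% of windows, was found among the 6 members only before Myh4, at 104 bases. These are matches of letters. No binding was measured, and an element outside these windows would not be seen.

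The values are log2 expression after robust multi-array averaging (RMA), so 1 unit is a doubling of signal. Receptors of smell and pheromones, 1394 genes that muscle hardly uses, marked the background. Their 95th percentile was 5.47, which 58.7% of all genes exceeded. Probe sets differ in how well they bind, so the level of 1 chain is never set against that of another. Closely related chains could share probes, and cross-hybridisation between them was not tested.

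Among the targeted genes, Mef2c lay between 10.10 and 10.54 on the log2 scale in the control arrays and between 7.51 and 8.08 in the Mef2c shRNA arrays. Its second probe set lay between 7.21 and 7.58 in the controls and between 5.34 and 6.07 with Mef2c shRNA. The Nup210 probe set was close to background everywhere, between 5.57 and 5.81 in the controls and between 5.54 and 5.79 in the Nup210 shRNA arrays. Its difference of -0.10 ± 0.064 (log2, SE, 6 against 6 arrays, limma adjusted p = 0.402) did not pass the threshold. Against the Mef2c shRNA arrays Nup210 was lower by -0.23 ± 0.064 (limma adjusted p = 0.0178), with all 6 arrays below the Mef2c shRNA mean. The arrays thus bear out the Mef2c label, and against the control the depletion of Nup210 is known from the labels only.

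Myotube identity was checked with 8 markers of differentiated muscle, all of which exceeded background in every group. Their mean level ran from 10.62 to 10.74 (log2) in control arrays, from 10.49 to 10.64 with Nup210 shRNA and from 10.52 to 10.64 with Mef2c shRNA. With Nup210 shRNA 2 of the 8 were called lower, Ckm and Mymk, and with Mef2c shRNA 2, Acta1 and Actn2. Over all genes, 8.16% were called in either direction with Nup210 shRNA and 10.8% with Mef2c shRNA. All marker counts are read beside these shares. Of 8 myoblast and satellite cell markers, Sdc4 was called lower with Nup210 shRNA, and with Mef2c shRNA Hey1 and Notch1 lower and Vcam1 higher. Their mean level was 8.71 to 8.88 in controls, 8.71 to 8.83 with Nup210 shRNA and 8.70 to 8.77 with Mef2c shRNA.

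Of 5 measured cycling markers, 4 were called lower with Mef2c shRNA and 0 with Nup210 shRNA, beside 10.8% and 8.16% of all genes called in either direction. The mean cycling level was 7.82 to 8.31 in controls, 7.82 to 8.14 with Nup210 shRNA and 7.10 to 7.47 with Mef2c shRNA. Of the 5 smooth muscle markers, 3 were called lower with Nup210 shRNA and 2 with Mef2c shRNA, and their mean level was 9.03 to 9.29, 8.65 to 9.03 and 8.74 to 8.96 in the same order. Of other cell types, 1 of 5 immune markers (Cd68), 1 of 4 endothelial markers (Kdr) and 2 of 6 adipocyte markers (Plin1 and Cebpa) exceeded background. So did 3 of 6 cardiac markers (Nppa, Nppb and Tnni3) and 3 or 4 of 6 fibroblast markers. The fibroblast marker Dcn was called higher in both comparisons with control, Col1a1 lower with Mef2c shRNA, the adipocyte marker Cebpa higher with Mef2c shRNA, and of the cardiac markers Nppb lower and Tnni3 higher with Mef2c shRNA. The mean fibroblast level was 6.78 to 6.92 in controls, 6.89 to 7.06 with Nup210 shRNA and 6.87 to 7.08 with Mef2c shRNA. The mean adipocyte level was 4.89 to 5.13, 4.94 to 5.21 and 5.14 to 5.26 in the same order. Adipoq and Fabp4 are among the adipocyte markers that did not exceed background. The part of these marker shifts in the results on the myosin chains was not tested. Arrays correlated with others of their group at 0.991 to 0.995 over all genes.

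Against the control, the slow chain Myh7 and the embryonic chain Myh3 fell in both shRNA groups, and no other member was called in either comparison. Myh7 fell to 69.9% of control with Nup210 shRNA and to 70.7% with Mef2c shRNA. Myh3 fell to 86.8% and to 76.5%. Calls required a p below 0.05 in a limma fit over all genes, after Benjamini-Hochberg adjustment. With Nup210 shRNA 2 of 6 members were called, both lower, where 8.16% of all genes were called, 5.11% lower and 3.05% higher. With Mef2c shRNA 2 of 6 were called, again both lower, where 10.8% of all genes were called, 6.42% lower and 4.34% higher. The median log2 difference of the members was -0.21 with Nup210 shRNA and -0.18 with Mef2c shRNA, beside 0.015 and 0.020 over all genes. Both comparisons use the same 6 control arrays, so the 2 sets of differences are not independent.

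**Figure D1:**
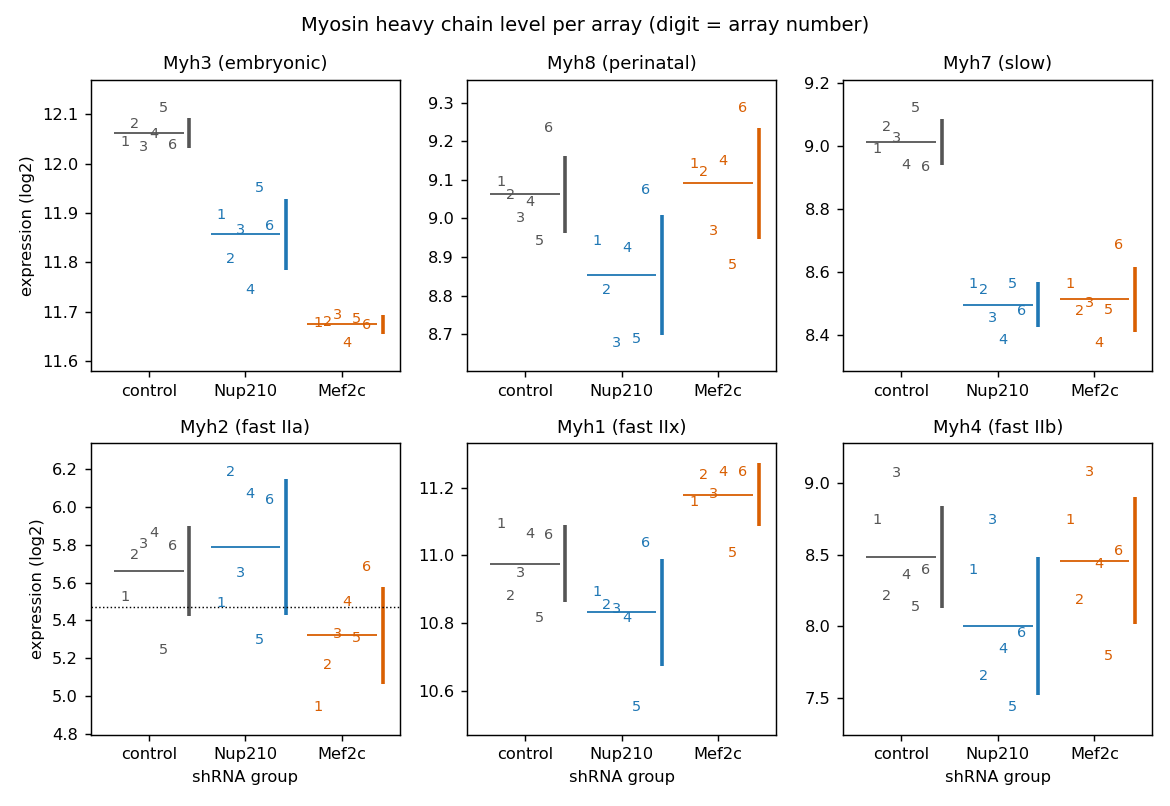
Log2 expression of each member on each array by shRNA group, each gene on its own scale; digits are array numbers, horizontal lines group means and vertical bars 1 SD above and below the mean (n = 6). Myh3 and Myh7 lie below every control array in both shRNA groups, and the dotted line in the Myh2 panel is the background guide at 5.47.

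Myh3, the embryonic chain, had the smallest spread of the members in the control and Mef2c shRNA arrays. In the control arrays its lowest, median and highest log2 levels were 12.03, 12.05 and 12.11. With Nup210 shRNA they were 11.74, 11.87 and 11.95, and with Mef2c shRNA 11.64, 11.68 and 11.69. The 3 groups did not overlap at any point: control was highest, Nup210 shRNA intermediate and Mef2c shRNA lowest. The log2 difference from control was -0.20 ± 0.037 (SE, n = 6 against 6, limma adjusted p = 0.00143) with Nup210 shRNA. With Mef2c shRNA it was -0.39 ± 0.037 (adjusted p = 1.92e-06). Tested directly, Myh3 was higher with Nup210 than with Mef2c shRNA by 0.18 ± 0.037 (limma adjusted p = 0.0018).

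Myh8, the perinatal chain, lies in the same gene cluster as Myh3, with the fast chains between them. Its lowest, median and highest levels were 8.94, 9.05 and 9.23 (log2) in the controls. With Nup210 shRNA they were 8.68, 8.87 and 9.07, and with Mef2c shRNA 8.88, 9.13 and 9.29. All 3 ranges overlapped. The difference from control was -0.21 ± 0.076 with Nup210 shRNA (95% interval -0.37 to -0.05, limma adjusted p = 0.112) and 0.03 ± 0.076 with Mef2c shRNA (-0.13 to 0.19, adjusted p = 0.881). Neither passed the threshold. In the 28 alternative analyses the difference with Nup210 shRNA passed in 2, with a limma adjusted p from 0.00226 to 0.475, and that with Mef2c shRNA in 0. Between the shRNA groups, Myh8 was lower with Nup210 shRNA by -0.24 ± 0.076 (limma adjusted p = 0.0454), and all 6 arrays lay under the Mef2c shRNA mean. That call was narrow: it passed in 10 of 28 alternative analyses, in which the adjusted p ran from 0.000501 to 0.265. The second Myh8 probe set, with group means between 6.16 and 6.30, had differences of -0.10, 0.04 and -0.14 in the same order, each with the sign of the first.

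Myh7, the slow chain and also the beta chain of the heart ventricle, had the largest fall among the called members. The lowest, median and highest log2 levels in the controls were 8.93, 9.01 and 9.12. With Nup210 shRNA they were 8.38, 8.51 and 8.56, and with Mef2c shRNA 8.37, 8.49 and 8.68. Every array of both shRNA groups lay below every control array, and the shRNA groups covered nearly the same range. The log2 difference was -0.52 ± 0.052 with Nup210 shRNA (SE, n = 6 against 6, limma adjusted p = 6.04e-06) and -0.50 ± 0.052 with Mef2c shRNA (adjusted p = 4.89e-06). Between the shRNA groups it was -0.02 ± 0.052, with a 95% interval of -0.13 to 0.09 (adjusted p = 0.9), so a difference larger than those bounds between them was not seen.

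Groups that did not overlap were found for Myh3 and Myh7 alone in each comparison with control, 2 of 6 members. Over all genes, 5.63% did not overlap with Nup210 shRNA and 7.74% with Mef2c shRNA. The calls of Myh3 and Myh7 against control held in all 28 alternative analyses. Their adjusted p reached at most 0.0155 for Myh3 with Nup210 shRNA and 0.000392 for Myh7. Mir208b, a microRNA encoded within Myh7, had a probe set of its own at 1.99 to 3.08 on all arrays, below the background guide. No value for its change is therefore given.

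Among the members, the fast chains Myh2 and Myh4 had the largest spreads within groups, and the fast chain Myh1 did not. Myh2, the IIa chain, was close to background. Its lowest, median and highest log2 levels were 5.24, 5.77 and 5.86 in the controls, 5.30, 5.85 and 6.19 with Nup210 shRNA, and 4.94, 5.32 and 5.68 with Mef2c shRNA. The guide of 5.47 was not reached by 1 control array, 1 Nup210 shRNA array and 4 Mef2c shRNA arrays, and all groups overlapped. The differences were 0.13 ± 0.16 with Nup210 shRNA (limma adjusted p = 0.724) and -0.34 ± 0.16 with Mef2c shRNA (adjusted p = 0.193). Between the shRNA groups the difference of 0.47 ± 0.16 came close to the threshold (95% interval 0.14 to 0.80, limma adjusted p = 0.0524) and passed it in 7 of 28 alternatives, where the adjusted p ran from 0.00774 to 0.157.

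Myh1, the IIx chain, differed between the shRNA groups. Its lowest, median and highest log2 levels were 10.81, 11.004 and 11.09 in the controls. With Nup210 shRNA they were 10.55, 10.85 and 11.04, and with Mef2c shRNA 11.01, 11.21 and 11.25. Mef2c shRNA array 5 lay within the range of the other groups and the other Mef2c shRNA arrays above it, so all ranges overlapped. Nup210 shRNA arrays were lower than Mef2c shRNA arrays by -0.35 ± 0.071 (limma adjusted p = 0.00205), a call that held in all 28 alternatives.

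Neither difference of Myh1 from control passed. It was -0.14 ± 0.071 with Nup210 shRNA (95% interval -0.29 to 0.01, limma adjusted p = 0.267). With Mef2c shRNA it was 0.20 ± 0.071 (0.05 to 0.35, adjusted p = 0.0777), with all 6 arrays above the control mean. The second passed in 8 of 28 alternatives, with adjusted p from 0.00935 to 0.156. Among these were the fits without Mef2c shRNA array 5 and without Nup210 shRNA array 5.

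Myh4, the IIb chain, had the widest spread within groups. Its lowest, median and highest log2 levels were 8.14, 8.38 and 9.07 in the controls. With Nup210 shRNA they were 7.44, 7.90 and 8.74, and with Mef2c shRNA 7.79, 8.48 and 9.08. The ranges overlapped broadly. The difference from control was -0.48 ± 0.23 with Nup210 shRNA (95% interval -0.96 to -0.0013, limma adjusted p = 0.245) and -0.03 ± 0.23 with Mef2c shRNA (-0.51 to 0.45, adjusted p = 0.963). These intervals leave room for a change as large as those of the called members. Without Nup210 shRNA arrays 2, 4 and 5, to which limma gave the lowest weights of that group, the difference with Nup210 shRNA was -0.12. Arrays 2, 4 and 5 of the controls, at 8.22, 8.36 and 8.14, also lay below their group's mean of 8.49 and stayed in that fit. Over all 28 alternatives the difference with Nup210 shRNA ran from -0.63 to -0.12. It passed in 1 of them, the fit with array number as a block (limma adjusted p = 0.000216), and the highest adjusted p was 0.893.

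Between the shRNA groups, 3 of 6 members were called, Myh1 and Myh8 lower and Myh3 higher with Nup210 shRNA. Over all genes, 14% were called in this comparison, 6.93% lower and 7.1% higher. Only the Myh3 groups did not overlap, 1 of 6 members, beside 8.62% of all genes. The median of the members was -0.13, and that of all genes -0.0035.

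**Figure D2:**
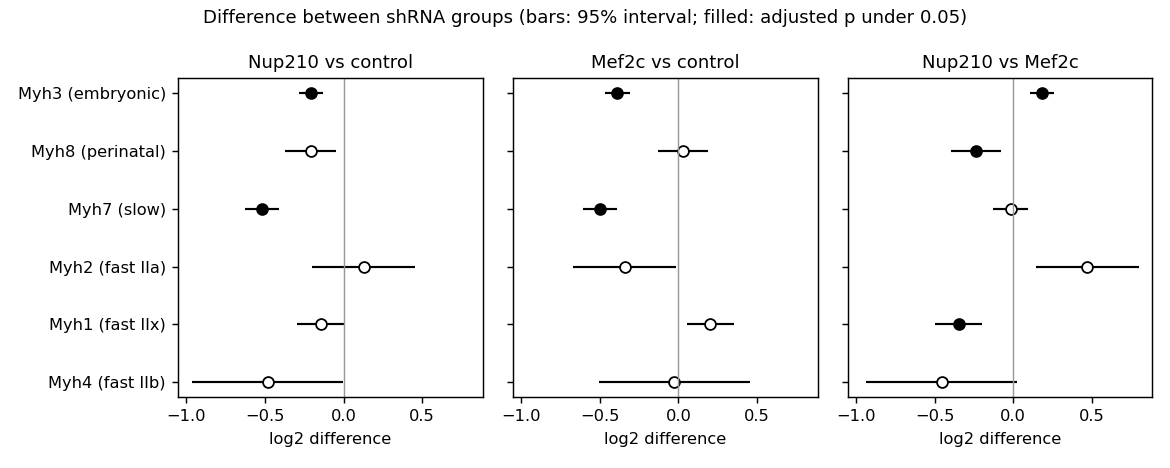
Log2 difference of each member between shRNA groups from the limma fit over all genes; circles are estimates, bars 95% intervals, and filled circles have an adjusted p under 0.05. Myh3 and Myh7 are lower than control in both shRNA groups, and Myh1, Myh3 and Myh8 differ between the shRNA groups.

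Isoform proportions were read from the log2 ratio of 2 members on the same array. If the binding strength of a probe set is constant on this scale, it drops out when the ratio is compared between groups. A change of the ratio can then be read where its level cannot. Shrunken changes of dim genes and probes shared between chains would not drop out, and neither was tested. All 15 pairs were compared in 3 comparisons by an exact permutation test (two-sided, every split of 6 against 6 arrays). Its smallest possible p is 0.00216, and p-values were adjusted over the 45 tests. By this test 4 pairs changed with Nup210 shRNA, and all 4 held Myh7. With Mef2c shRNA 6 changed, 4 of them with Myh1 as a member, 1 of these against the dim Myh2. Between the shRNA groups 6 changed. The permutation test takes no account of array number. With array number as a block, a linear model also called ratios without Myh7 with Nup210 shRNA. Among them was Myh3 to Myh4 (0.28, linear model adjusted p = 0.000929). The labels do not say that the numbers pair arrays.

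With Nup210 shRNA the slow chain lost ground to the embryonic, perinatal, IIa and IIx chains. The Myh3 to Myh7 ratio rose by 0.31 on the log2 scale, from a mean of 3.05 ± 0.053 (SD, n = 6) to 3.36 ± 0.054 (exact permutation adjusted p = 0.0122), and these arrays did not overlap. The Myh1 to Myh7 ratio rose by 0.37, from 1.96 ± 0.18 to 2.34 ± 0.19 (adjusted p = 0.03, exact permutation). Myh2 to Myh7 rose by 0.64 (exact permutation adjusted p = 0.039), with Myh2 close to background. The Myh7 to Myh8 ratio fell by 0.31 (exact permutation adjusted p = 0.0487). Myh3 to Myh8 moved by 0.0041 (adjusted p = 0.959, exact permutation), within a spread of 0.12 and 0.19 (SD) in the 2 groups. Leaving out 1 array at a time gave 1 to 6 called pairs, and the count fell to 1 without Nup210 shRNA array 4 or 6, and to 2 without Nup210 shRNA array 2 or without control array 1, 2, 3 or 5. Myh3 to Myh7 was called each time.

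With Mef2c shRNA the IIx chain rose relative to Myh3, Myh7 and Myh8, and its ratio to Myh4 moved by 0.23 (exact permutation adjusted p = 0.382). The Myh1 to Myh7 ratio rose by 0.70, from 1.96 ± 0.18 to 2.67 ± 0.13 (exact permutation adjusted p = 0.0122). Myh1 to Myh3 rose by 0.59, from -1.09 ± 0.14 to -0.49 ± 0.10 (exact permutation adjusted p = 0.0122). The ratio of Myh1 to Myh8 rose by 0.18 (exact permutation adjusted p = 0.0348). The ratio of Myh1 to Myh2 also passed the test, at 0.55 (exact permutation adjusted p = 0.0244), but the mean of Myh2 with Mef2c shRNA, 5.32, was under the background guide, so the size of that change is not known. The perinatal chain also gained on the falling chains: Myh3 to Myh8 fell by 0.42 (exact permutation adjusted p = 0.0177) and Myh7 to Myh8 by 0.53 (adjusted p = 0.0122). Myh3 to Myh7, the ratio that stood out with Nup210 shRNA, rose by 0.11 and was not called (exact permutation adjusted p = 0.0881). A linear model of the ratios did call this rise (linear model adjusted p = 0.0378, and 0.0406 with array number as a block).

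The direct comparison of the shRNA groups tested whether these patterns differed. With Nup210 relative to Mef2c shRNA, Myh3 to Myh7 was higher by 0.20 (exact permutation adjusted p = 0.0122) and Myh3 to Myh8 by 0.42 (adjusted p = 0.0177). Myh1 to Myh3 was lower by -0.53 (exact permutation adjusted p = 0.0122), Myh1 to Myh7 by -0.33 (adjusted p = 0.0177) and Myh1 to Myh2 by -0.82 (adjusted p = 0.0122). Myh2 to Myh8 was higher by 0.71 (exact permutation adjusted p = 0.0122). Among the pairs called there, those with Myh2 rest on a signal close to background.

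**Figure D3:**
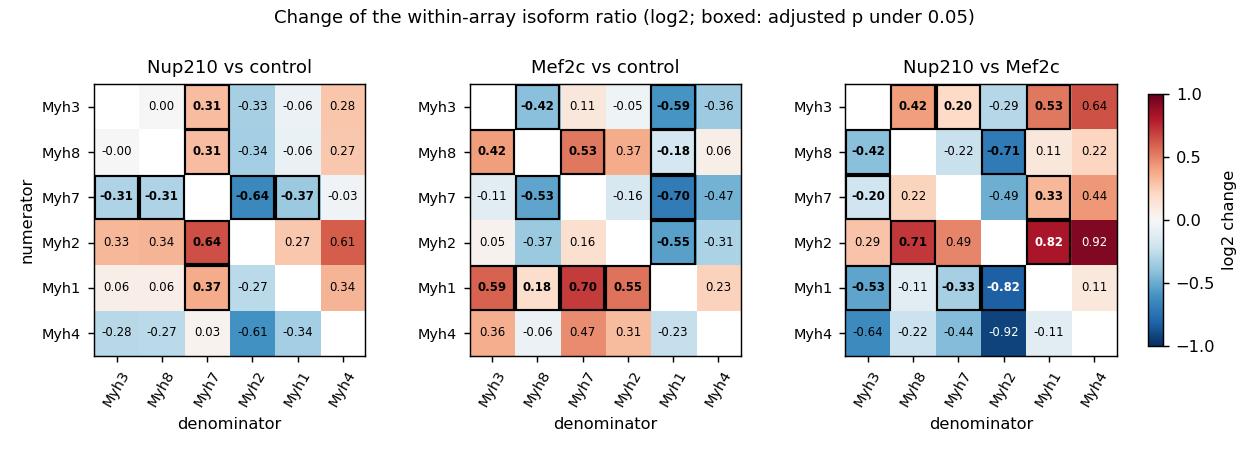
Change between groups of the within-array log2 ratio of the row gene to the column gene; red is a rise and blue a fall, and boxed cells have an adjusted p under 0.05 by exact permutation over 6 against 6 arrays. The boxed cells of the Nup210 panel lie in the Myh7 row and column, and in the Mef2c panel the Myh1 row holds 4 of them.

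Arrays of the same number behaved alike for some members and not for others. For Myh4, array 3 was the highest and array 5 the lowest in all 3 groups. Its deviations from the group means, taken by array number, correlated between groups at 0.992 (control and Nup210 shRNA), 0.938 (control and Mef2c shRNA) and 0.969 (Nup210 and Mef2c shRNA), each over 6 arrays. For Myh8, array 6 was the highest in all 3 groups, and the correlations were 0.907, 0.933 and 0.952. Array 5 was the lowest for Myh1 in all 3 groups.

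Means over the 3 arrays of a number took up 96.3% of the within-group variance for Myh4, 92.5% for Myh8 and 78.9% for Myh1. They took up 69.2% for Myh2, 50.6% for Myh3 and 45.3% for Myh7. Such means take up part of the variance even where same-numbered arrays share nothing. The share is therefore not the part in common, and it is read beside that of all genes. Over 13017 genes above background its median was 41.7% and its 95th percentile 80.2%. Only 8 of those genes had a larger share than Myh4, and 66 a larger one than Myh8. The chains that fell against control, Myh3 and Myh7, were near the median of all genes on this measure. The labels do not say what arrays of the same number share.

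**Figure D4:**
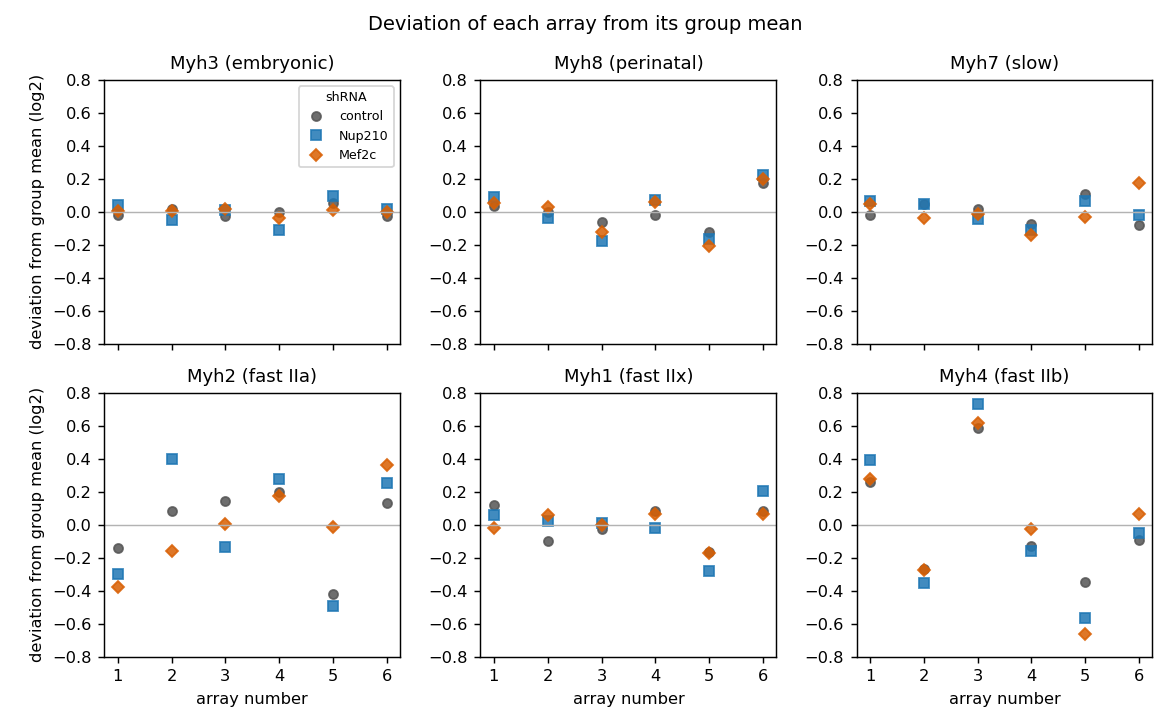
Deviation of each array from its own group mean (log2) by array number, for the control (circles), Nup210 shRNA (squares) and Mef2c shRNA (diamonds) arrays. For Myh4 and Myh8 the 3 symbols of a number lie close together, and for Myh3 and Myh7 the deviations are small.

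Which members varied together within the groups was described by the correlation of deviations from the group means over the 18 arrays, which share array number and cell line. Myh1 and Myh8 had the highest value, 0.733, followed by Myh3 and Myh7 at 0.532 and Myh1 and Myh2 at 0.515. Myh2 and Myh3 ran opposite at -0.70. Myh4, which lies between Myh1 and Myh8 in the cluster, had 0.432 with Myh1 and 0.0829 with Myh8. By the same measure, the gene most like each member among 11975 others was Egr3 for Myh4 (0.966), Crls1 for Myh8 (0.938), Mapt for Myh1 (0.917), Prdx2 for Myh3 (0.856), Hoxc13 for Myh2 (0.844) and Slc16a8 for Myh7 (0.841). The next most alike were Fam171a2 and Gcnt4 for Myh4, Arhgap29 and Krt80 for Myh8, and Ppp1r14c and Carhsp1 for Myh1. For Myh3 they were Neo1 and Napepld, for Myh2 Sap30 and Pfkl, and for Myh7 Osr1 and Rad51c. All were picked as the highest of 11975 values over 18 arrays, and picking alone also gives high values. How high was not tested.

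The lists that follow are read beside the share of all genes called, 8.16% with Nup210 shRNA and 10.8% with Mef2c shRNA. Of the 8 other class II myosin heavy chains, which serve heart, eye, smooth muscle and non-muscle cells, 0 were called with Nup210 shRNA. Their median difference was 0.082, beside 0.015 over all genes. With Mef2c shRNA 3 were lower and 1 higher, 4 of 8, and the median was 0.030. Non-muscle Myh10 fell by 0.17 (limma adjusted p = 0.00382), with no overlap between the groups. Myh7b, a slow-type chain related to Myh7, fell by 0.22 (limma adjusted p = 0.024), and the dim non-muscle chain Myh14, at 5.51 in the controls, rose by 0.18 (adjusted p = 0.0353). The calls of Myh7b and Myh14 were lost in 6 and 14 of 28 alternatives, with adjusted p up to 0.0649 and 0.206. The count of 4 became 2 when any of Mef2c shRNA arrays 1, 2, 5 and 6 or control arrays 1, 2, 3 and 6 was left out, and 1 without control arrays 4 and 6, which an earlier account of these data had set aside. Non-muscle Myh9 was the third that fell.

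A list of 13 genes linked to slow fibres held sarcomere proteins and also proteins of calcium handling and myoglobin. With Nup210 shRNA 4 were lower and 0 higher (30.8% called), with a median of -0.17. Among them Atp2a2, the calcium pump SERCA2, fell by 0.29 (limma adjusted p = 0.000396) and slow troponin T, Tnnt1, by 0.37 (adjusted p = 0.00996), both without overlap with the controls. Tpm3, slow alpha-tropomyosin, fell by 0.35 (limma adjusted p = 0.0239), a call lost in 6 of 28 alternatives, with adjusted p up to 0.263. Casq2, a calsequestrin, was the fourth. With Mef2c shRNA 4 were lower and 0 higher (30.8% called), with a median of -0.15.

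Among the slow-fibre genes called with Mef2c shRNA, the largest changes were those of Ankrd2, Myoz2 and Mb. Ankrd2, a stretch-responsive ankyrin-repeat protein, fell by 0.51 (limma adjusted p = 4.16e-05). Myoz2, a Z-disc protein, fell by 0.40 (limma adjusted p = 0.0185) and Mb, myoglobin, by 0.29 (adjusted p = 0.0425). The Mb call was lost in 13 of 28 alternatives, with adjusted p up to 0.14, and that of Myoz2 without control arrays 4 and 6. Myl2, a slow myosin light chain, differed by -0.29 and was not called (limma adjusted p = 0.094). Atp2a2 was the fourth. Slow troponins I and C were not called in either comparison, Tnni1 at 0.02 and -0.05 and Tnnc1 at -0.09 and -0.05. Without Nup210 shRNA arrays 2, 4 and 5 the Nup210 count was 1, where 563 in place of 1809 genes were called in all, and without control arrays 4 and 6 the Mef2c count was 1, where 1420 in place of 2386 were.

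Of 13 fast-fibre genes, 5 were lower and 0 higher with Nup210 shRNA (38.5% called), with a median of -0.16. Casq1, the calsequestrin of the fast-fibre calcium store, fell by 0.82 (limma adjusted p = 0.0238), a call lost in 5 of 28 alternatives, with adjusted p up to 0.391. Mylk2, skeletal myosin light chain kinase, fell by 0.52 (limma adjusted p = 0.000685), without overlap with the controls and in all 28 alternatives. Mybpc2, fast myosin-binding protein C, fell by 0.47 (limma adjusted p = 0.0382), a call lost in 13 of 28 alternatives, with adjusted p up to 0.459. Atp2a1 and Tpm1 were the others. The count of 5 became 3 without Nup210 shRNA array 2, 4 or 5 or without control array 3, and 2 without all those Nup210 shRNA arrays together. With Mef2c shRNA 1 was lower (7.69% called), Casq1, by 0.95 (limma adjusted p = 0.00695), and the median was -0.0097. The fast troponins were not called in either comparison: Tnnt3 stood at -0.01 and -0.01, and Tnni2 at -0.06 and -0.05.

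Proteins that fold, bind, anchor or degrade myosin were represented by 14 measured genes of 16. With Nup210 shRNA 7 were lower and 0 higher, 7 of 14, with a median of -0.22. They were the M-band proteins Myom1, Myom2 and Myom3, the myosin chaperone Unc45b, the methyltransferase Smyd1 and the ubiquitin ligases Trim55 and Trim63. Myom1 fell by 0.51 (limma adjusted p = 1.4e-05), Myom3 by 0.36 (adjusted p = 0.0105) and Unc45b by 0.35 (adjusted p = 0.00217). Their groups did not overlap with the controls. The count was 3 without Nup210 shRNA arrays 2, 4 and 5.

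With Mef2c shRNA 3 genes of this list were lower and 1 higher (28.6% called), with a median of -0.04. Mybpc1, slow myosin-binding protein C, fell by 0.55 (limma adjusted p = 0.000769). Unc45b fell by 0.24 (limma adjusted p = 0.0252), a call lost in 6 of 28 alternatives, with adjusted p up to 0.0647, and Smyd1 was the other that fell. Trim63, the ligase MuRF1, rose by 0.28 (limma adjusted p = 0.000845). Trim63 was thus called in opposite directions in the 2 comparisons with control.

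Of 23 measured regulators of sarcomeric myosin genes, 1 was lower and 2 higher with Nup210 shRNA, with a median of 0.047. That is 13.0% of the list, near the 8.16% of all genes. The myogenic factor Myf5 rose by 0.66 (limma adjusted p = 9.48e-05) and MyoD, Myod1, by 0.26 (adjusted p = 0.00266). Mef2d, a relative of Mef2c, fell by 0.17 (limma adjusted p = 0.0163). Without Nup210 shRNA arrays 2, 4 and 5 only Myf5 was called, and without control array 5 the count was 5. With Mef2c shRNA 3 were lower and 3 higher (26.1% called), with a median of -0.01. Myf6, the late myogenic factor MRF4, fell by 0.52 (limma adjusted p = 0.000294). Eya1, a transcriptional cofactor, rose by 0.49 (limma adjusted p = 0.0031) and Myf5 by 0.33 (adjusted p = 0.0192). The other 3 were Mef2d and Ppp3ca, which fell, and Nfatc3, which rose.

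**Figure D5:**
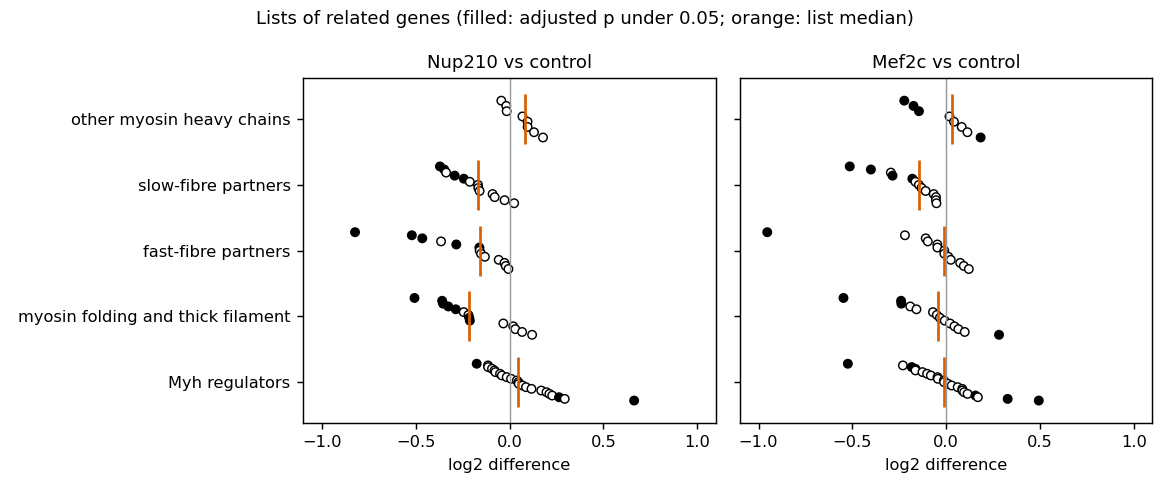
Log2 difference from control of each measured gene in 5 lists, for Nup210 shRNA (left) and Mef2c shRNA (right); filled points have a limma adjusted p under 0.05 and orange lines are list medians. The folding and thick filament list has its median at -0.22 with Nup210 shRNA and at -0.04 with Mef2c shRNA.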

How the data were processed

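Total RNA from 18 samples of C2C12 myotubes was measured on 1 one-colour array each, 6 per shRNA group. The authors deposited log2 expression values. The submitters' processing notes name RMA and Partek, with their version, setting and build "not given in the sources used here". This averaging equalises the arrays' distributions after background correction, which shrinks changes of dim genes. No batch or scan date was found in the labels, and none was tested. Array medians ran from 5.48 to 5.57; the number of arrays limits the precision. No detection calls were used.

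Gene symbols came from GEO's platform annotation, in which 23521 probe sets had 1 symbol, 1814 several and 16010 none, and the last 2 kinds were left out. Each of 22180 genes was represented by its probe set of highest mean. The 18 arrays entered a single fit of group means in limma 3.58.1 under R 4.3.3, with default moderation, and p-values were adjusted by Benjamini-Hochberg over all genes. Ratios within arrays were tested by exact permutation (scipy 1.17.1, Python 3.11.15). The fit was tested on simulated data. Alternatives changed the normalization, probe set rule, dim-gene filter, prior, weights, groups fitted and threshold, added a replicate block, or left out arrays.

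The members, lists and tests were chosen with earlier results of these data known. The text names all 6 members, the targeted genes, of each related list up to 3 called genes of largest difference per comparison with control, and the 3 genes most like each member. Genes named only to complete a count, the troponins, Myl2 and the cell type markers picked out by name fall outside this rule. They were named after their values were seen. Promoter sequences and gene order are RefSeq's, on GRCm38.p6, and the arrays' values carry no coordinates.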

Additional observations from a re-analysis of the deposited data

Results flagged for a closer look

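In 6 arrays, a highest or lowest value was taken to stand apart when its gap to the next array exceeded Dixon's 95% critical value as a share of the group's range, which chance gives in about 1 in 20 groups. Of 30 groups of arrays, for the members and the targeted genes, 5 met this, 2 of them among the 21 of the members. Myh1 was lowest on Mef2c shRNA array 5, with a gap of 0.628 of the range. Myh3 was lowest on Mef2c shRNA array 4, with 0.646, although that whole range ran only from 11.64 to 11.69 (log2). Mef2c was lowest on array 5 of the Mef2c shRNA group (0.641), and its second probe set was lowest on array 5 of the controls (0.709). Nup210, close to background, was lowest on control array 6 (0.745).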

How the results depend on the processing

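The falls of Myh3 and Myh7 against control, and the differences of Myh1 and Myh3 between the shRNA groups, kept direction and call in all 28 alternatives, the last 2 of which (without Nup210 shRNA arrays 2, 4 and 5, the group's arrays of lowest estimated weight, and without control arrays 4 and 6, set aside in an earlier account of these data) were chosen after seeing the data. Without 1 array at a time, 2 to 3 members were called with Nup210 shRNA, 2 to 3 with Mef2c shRNA and 2 to 4 between them, and 1 to 6, 5 to 7 and 6 to 9 ratios. Signs turned only for uncalled differences near 0. Myh4 with Mef2c shRNA was 0.0030 after renewed quantile normalization and -0.15 to 0.11 without 1 array. Myh8 with Mef2c shRNA was -0.011 to 0.070 without 1 array. Myh7 between the shRNA groups was 0.0024 with array weights and -0.045 to 0.017 without 1 array. The cause of these changes was not tested. With the replicate block, 4 members were called with Nup210 shRNA (adding Myh4, adjusted p = 0.000216 by limma, and Myh8, 0.00226), 3 with Mef2c shRNA (adding Myh1, 0.00935) and 5 between them (adding Myh2, 0.00774, and Myh4, 0.000149); a linear model of the ratios with the replicate block called 10, 11 and 12 of 15, and without it 4, 7 and 8. The labels do not say that the numbers pair arrays. Over all genes, deviations of same-numbered arrays correlated at -0.18 to 0.22 over 18 pairs, with a median of 0.063. The median over 90 differently numbered pairs was -0.014. Correlations exceeded 0.1 in 6 of the 18 pairs and in 4 of the 90. The 6 of 18 were taken as too few to pair the arrays, so the fit without the block stayed the main one. As a hint from the data only, an array correlated best with its own number in another group in 22 of 36 cases, where 6 would follow from the count of numbers alone. The block called 2221 in place of 1809, 2862 in place of 2386 and 3528 in place of 3113 genes. Differences of dim chains such as Myh2 are limited by signal over background.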
